A study of Mus musculus with 5 samples.

Results

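Pou5f1, Nanog, Esrrb, Klf2, Klf4, Klf5, Zfp42, Tbx3, Tfcp2l1 and Dppa3, the core and naive pluripotency factors examined here, were followed while mouse embryonic stem (ES) cells were turned into spinal motor neurons. The 10 genes were listed by name, and every array probe whose accession belonged to one of them was used. They are 10 of the 19897 genes that could be named on the array, and 11 of its 26300 named probes belong to them. Each of the 5 samples, all wild type and male, was total RNA on 1 Agilent one-colour gene expression array. The ES sample was undifferentiated. Day2 was embryoid bodies (EB, floating aggregates of differentiating cells) after 8 h of retinoic acid (RA), Day3 and Day4 were EBs after 1 day and 2 days of RA, and Day7 was a motor neuron (MN) culture after 5 days of RA. A second inducer was given with RA, named Shh in the labels and smoothened agonist (SAG) in the study's methods. By the treatment label, both agents were present between day 2 and day 5. The 5 days named for Day7 differ from this span unless they are counted from the start of RA. The ES line hybridised to the arrays is not named in the sources used here.

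Pluripotency is held by a network of transcription factors that activate their own and each other's genes. Pou5f1 (Oct4) and Nanog form its core together with Sox2. A second layer, the naive factors, marks the state of the early epiblast and of ES cells grown with leukaemia inhibitory factor (LIF): LIF acts through Stat3 on Klf4 and Tfcp2l1, Wnt signalling relieves repression of Esrrb, and Klf2, Klf5, Tbx3, Zfp42 and Dppa3 are held up in the same state. Cells that leave it usually shut down naive genes before Pou5f1.

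All values below are log2 signals of the scanner software after quantile normalization of the 5 arrays, and each gene is compared with itself in the ES sample. There was 1 array per time point and no replicate, so no test was possible, and a change of 2-fold was used as a rule of size. The scanner software gave each reading of these probes an error of 10% to 11% of its signal, or 0.14 to 0.16 on the log2 scale, so that a difference between 2 arrays carried an error of about 0.20. This error leaves out all variation between cultures. Bulk RNA was measured, so fewer cells that express a gene and less RNA of it per cell cannot be told apart. Day7 was hybridised on a second slide by itself, so an effect of the slide cannot be separated from that of time.

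The arrays were not alike in background. On Day2, 86.7% of the mouse probes were well above background, against 59.2% in ES, 57.5% on Day3, 65.7% on Day4 and 62.4% on Day7. Of the ERCC probes, which match no mouse sequence, 66.7% passed the same limit on Day2, and 4.17% to 9.38% did so elsewhere. The arrays were therefore also scaled by a shift of each to its own 75th percentile, and shifted values stand beside some of the results below. Several list counts not shown with it differed by 1 or more genes under the shift. All 55 readings of the 11 probes were well above background, none was saturated and none was an outlier. The reading of Nanog on Day2 was the exception in strength: it lay 0.60 below the 95th percentile of the ERCC probes on that array (a difference of -0.60), while every other reading lay above that percentile of its own array.

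The labels were checked against marker genes. Of 7 ES cell markers (Pou5f1, Nanog, Sox2, Zfp42, Utf1, Tdgf1 and Fgf4), all were well above background in ES, and 5 were lowered at least 2-fold on Day7, with a median change of -4.16. The exceptions were Nanog and Sox2, the latter a factor that neural progenitors also use. Pou5f1, Nanog and Zfp42 are also among the factors followed here. Of the other ES markers, Utf1, Tdgf1 and Fgf4 fell 22.4-fold, 17.8-fold and 30.5-fold by Day7, and Sox2 1.71-fold. All 7 measured motor neuron markers were raised on Day7, with a median change of 6.06, and 6 of 8 neuron markers, with a median of 4.92. Mnx1 was not matched to a probe. The ES and Day7 labels were thus borne out by the marker lists, while the core factors Nanog and Sox2 did not follow the other ES markers. After the 75th percentile shift the change of Sox2 was -1.18, which counts as lowered.

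From ES to Day2, 6 of the 10 factors were lowered at least 2-fold, while 11.3% of all genes with a value were lowered. These were Nanog, Esrrb, Klf4, Klf5, Tbx3 and Tfcp2l1. On Day3 and again on Day4, 8 factors were lowered, against 10.2% and 14.4% of all genes, and on Day7 there were 8, against 24.4%. The 8 on Day7 were all but Nanog and Tbx3. No factor was raised at least 2-fold at any time point, where 10.7%, 15.6%, 17.0% and 24.8% of all genes were raised. The median change of the 10 factors was -1.66, -1.76, -1.78 and -3.19 on Day2, Day3, Day4 and Day7. The median over all genes with a value lay between -0.07 and 0.06 in these comparisons. After the shift to the 75th percentile it was 0.04, -0.12, -0.11 and -0.35 in the same order, and the factors' own medians then lay 1.81, 1.83, 2.03 and 3.17 below it (differences of -1.81, -1.83, -2.03 and -3.17).

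With that shift, 9 factors were lowered on Day2, Pou5f1, Klf2 and Dppa3 being added, and the number on the later arrays was again 8. The shift also changed the balance over all genes, with 7.01% lowered and 20.9% raised on Day2 and 15.1% lowered and 14.0% raised on Day3. On Day4 it gave 18.7% lowered and 15.8% raised, and on Day7 32.3% lowered, more than were raised. The split of the 10 factors on Day2 into 6 lowered and 4 not lowered thus depended on the scaling. With the Day2 array left out and the other 4 normalized together, the factors' medians on Day3, Day4 and Day7 were -1.77, -1.77 and -3.25, and 8 were lowered on each.

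**Figure D1:**
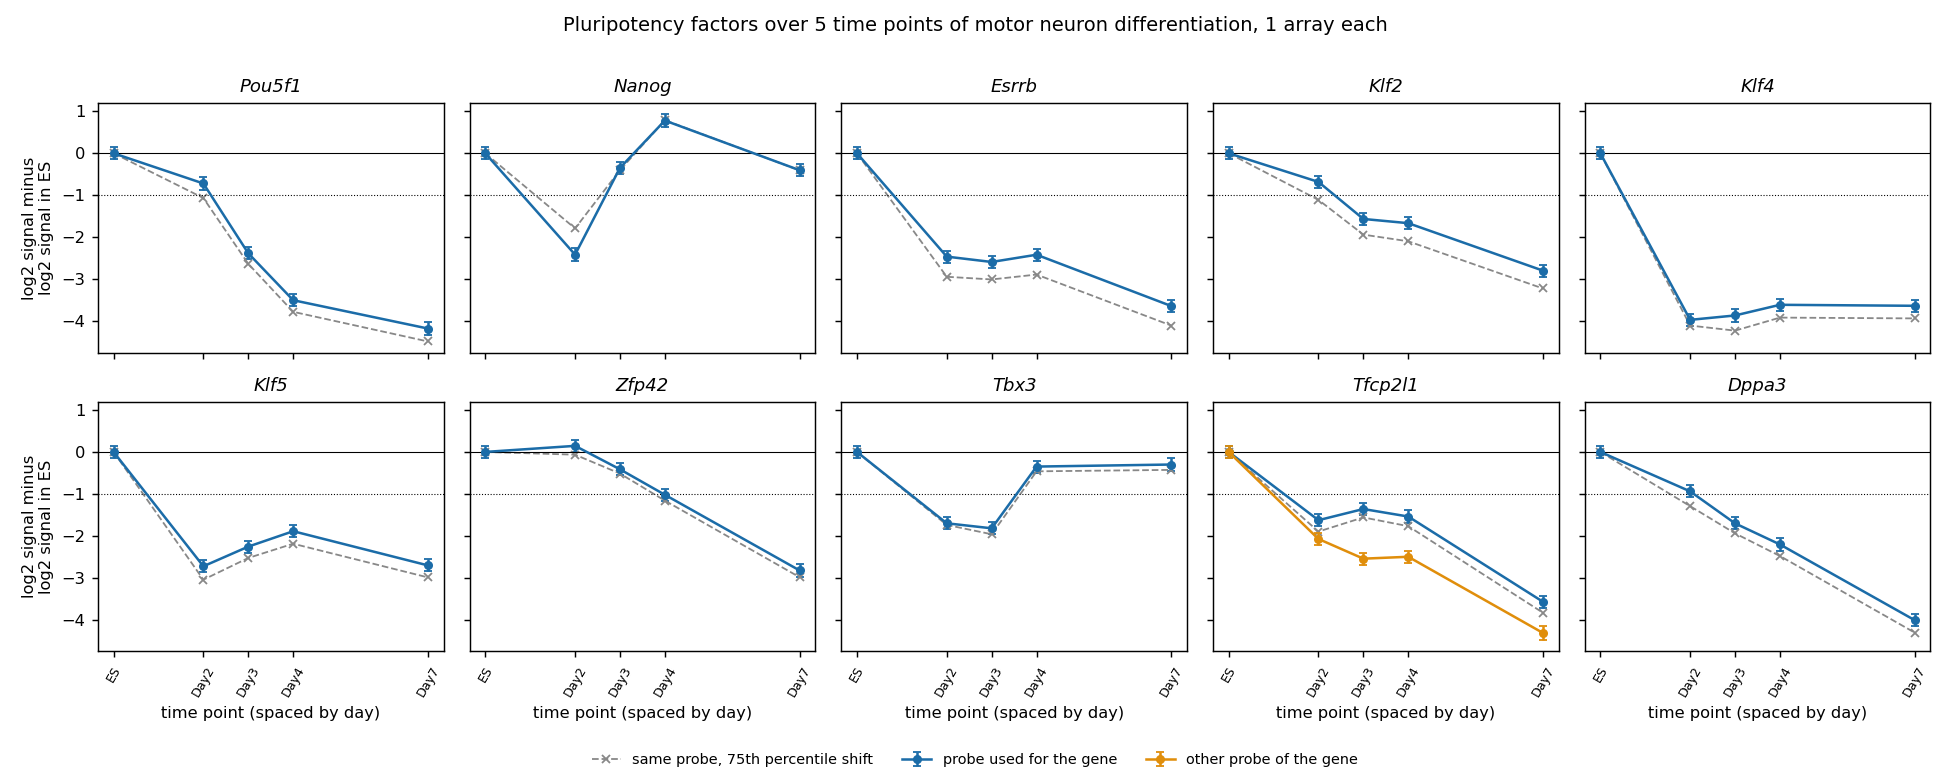
Log2 signal of each factor minus its log2 signal in ES (vertical axis) at the 5 time points, spaced by day (horizontal axis), with 1 array per point. Blue points and lines are the probe used for the gene after quantile normalization, orange the other probe of Tfcp2l1, and the dashed grey line the blue probe after the 75th percentile shift. Bars are the error of the scanner software, and the dotted line marks a 2-fold loss. Klf4 is at its low level from Day2 on, Pou5f1 and Dppa3 fall at every step, and Nanog and Tbx3 end within 2-fold of ES.

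Pou5f1, the POU-domain factor at the centre of the network, was lost step by step. Its log2 signal was 12.39 in ES and 11.68, 10.01, 8.90 and 8.22 on Day2, Day3, Day4 and Day7. That is 60.7%, 19.2%, 8.86% and 5.55% of the ES signal on Day2, Day3, Day4 and Day7. The signal was lower at each successive time point by more than the scanner error. Without normalization the last step, from Day4 to Day7, was a rise of 0.61, but the median over all genes rose by 1.06 on that scale, and Pou5f1 lay 0.44 below it (a difference of -0.44). The fall from ES was 1.65-fold, 5.21-fold, 11.3-fold and 18.0-fold on Day2, Day3, Day4 and Day7. Most of the fall came between Day2 and Day4, where Pou5f1 was the one factor lowered at least 2-fold in both steps, by 3.16-fold from Day2 to Day3 and by 2.17-fold from Day3 to Day4. With normexp background correction the second of these changes was -0.99, which does not reach 2-fold.

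Nanog, the homeodomain factor of the core, did not follow this course. Its probe read 9.20 in ES and 6.79, 8.85, 9.98 and 8.80 on Day2, Day3, Day4 and Day7. The signal was lowest on Day2, at 18.8% of ES, came back to 78.6% on Day3, stood at 172% on Day4 and was 75.6% of ES on Day7. Without normalization the change from ES to Day4 was -0.17, where the median over all genes was -1.06, so that Nanog lay 0.89 above that median. The loss on Day2 was 5.32-fold, and 3.45-fold after the 75th percentile shift, and it rests on the reading below the ERCC level described above. With the floor raised to that level the change was -1.81 in place of -2.41. From Day2 to Day3 the signal rose 4.18-fold, or 2.61-fold after the shift, and from Day3 to Day4 by 2.18-fold (a change of 1.13, and of 0.74 without normalization, where the median over all genes was -0.48). Nanog had 1 probe, so no other probe of the gene could be set beside it.

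Esrrb, an orphan nuclear receptor of the naive layer, fell in 2 stages. Its log2 signal was 14.51 in ES and 12.05, 11.93, 12.10 and 10.88 on Day2, Day3, Day4 and Day7. It dropped 5.50-fold by Day2, and the values on Day2, Day3 and Day4 then differed from one to the next by less than the scanner error. Between Day4 and Day7 came a further loss of 2.33-fold. On Day7 it stood at 8.05% of ES, a 12.4-fold loss.

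The 3 Krüppel-like factors, zinc finger proteins that bind shared sites in ES cells, were lost on different schedules. Klf4, a target of LIF and Stat3 and one of the reprogramming factors, read 12.63 in ES and 8.66, 8.77, 9.02 and 9.00 on Day2, Day3, Day4 and Day7. The whole loss was thus in place on Day2, at 6.41% of ES, a 15.6-fold fall, and no later step reached 2-fold. Klf4 was the one factor under 10% of its ES signal on Day2.

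Klf5, which LIF also keeps up, read 12.59 in ES and 9.87, 10.34, 10.71 and 9.89 on Day2, Day3, Day4 and Day7. It stood at 15.2% of ES on Day2, rose to 27.0% by Day4 and was back at 15.4% on Day7. Klf2, whose protein Erk signalling destabilises in ES cells, read 13.66 in ES and 12.98, 12.10, 12.00 and 10.87 on Day2, Day3, Day4 and Day7. Its course was gradual, with 62.3%, 33.8%, 31.6% and 14.4% of ES left on the later arrays. Klf5 had thus lost as much on Day2 (6.59-fold) as on Day7 (6.50-fold) within the scanner error, while Klf2 had lost 1.60-fold on Day2 and 6.93-fold on Day7.

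Zfp42 (Rex1), a zinc finger protein used as a reporter of the naive state, was the last to fall under 50% of its ES signal. Without normalization its change on Day3 was already -1.02, where the median over all genes was -0.63. Its probe read 11.26 in ES and 11.41, 10.85, 10.25 and 8.44 on Day2, Day3, Day4 and Day7. Day2 did not differ from ES by more than the scanner error, and the sign of that difference, 0.14, turned to -0.07 after the 75th percentile shift. On Day4 the signal was 49.3% of ES, just past the 2-fold rule, and with normexp background correction the change of -0.98 did not reach it. The step from Day4 to Day7, 3.48-fold, took it to 14.2% of ES.

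Dppa3 (Stella), a maternal factor that shields DNA methylation in the zygote and marks germ cells and naive ES cells, fell at every step. Its log2 signal was 12.46 in ES and 11.52, 10.76, 10.26 and 8.46 on Day2, Day3, Day4 and Day7. The share left was 52.2%, 30.8%, 21.7% and 6.24% of ES on Day2, Day3, Day4 and Day7. The step from Day4 to Day7, 3.49-fold, was its largest, and it is also the longest in days. The total loss was 16.0-fold.

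Tfcp2l1, a factor of the grainyhead and CP2 family downstream of Stat3, was measured by 2 probes. The probe that stands for the gene read 11.91 in ES and 10.29, 10.56, 10.38 and 8.35 on Day2, Day3, Day4 and Day7. The other read 11.30, 9.23, 8.76, 8.81 and 6.99 on the same arrays. Both fell from ES to Day2, by 3.08-fold and 4.20-fold, made no step of 2-fold up to Day4, and fell again from Day4 to Day7, by 4.08-fold and 3.51-fold. They disagreed in the middle: on Day3 the probe that stands for the gene had fallen by 1.36 and the other by 2.54 on the log2 scale. On Day7 they stood at 8.44% and 5.05% of ES, losses of 11.8-fold and 19.8-fold.

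Tbx3, a T-box factor of the naive network that is also used later in the embryo, in limb and heart for example, fell and came back. Its probe read 10.87 in ES and 9.17, 9.05, 10.52 and 10.57 on Day2, Day3, Day4 and Day7. The signal was 30.8% of ES on Day2 and 28.4% on Day3, then 78.5% on Day4 and 81.2% on Day7. It rose 2.77-fold from Day3 to Day4 and was level from Day4 to Day7. Day2 and Day3 did not differ beyond the scanner error.

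Ordered by the array on which the signal was under 50% of ES, Nanog, Esrrb, Klf4, Klf5, Tbx3 and Tfcp2l1 came on Day2, Pou5f1, Klf2 and Dppa3 on Day3, and Zfp42 on Day4. A level under 25% was reached on Day2 by Nanog, Esrrb, Klf4 and Klf5, on Day3 by Pou5f1, on Day4 by Dppa3, and on Day7 by Klf2, Zfp42 and Tfcp2l1, but never by Tbx3. For Tfcp2l1 this depended on the probe, as the other one was at 23.8% of ES on Day2. A level under 10% was reached by Klf4 on Day2, by Pou5f1 on Day4, and by Esrrb, Tfcp2l1 and Dppa3 on Day7. After the 75th percentile shift the array of the 10% level was the same for every factor. At 50%, Pou5f1, Klf2 and Dppa3 moved to Day2, with 47.8%, 46.4% and 40.9% of ES left. At 25%, Klf2 moved to Day4 and Nanog no longer reached the level. With the floor at the ERCC level, the Day2 change of Nanog was a bound of -1.81, which does not establish a level under 25%.

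Most losses of at least 2-fold from one array to the next came between ES and Day2 and between Day4 and Day7. The steps are unequal in length, with arrays on days 0, 2, 3, 4 and 7, and these were the longest. The step from ES to Day2 also spans more than the 8 h of RA. Rates of loss were not compared. In the step from ES to Day2 the 6 factors above were lowered. From Day2 to Day3, Pou5f1 was lowered at least 2-fold, against 7.76% of all genes, and Nanog raised, against 13.0%. From Day3 to Day4, Pou5f1 was again lowered (not with normexp), against 4.87% of all genes, and Nanog and Tbx3 were raised, against 3.62%. From Day4 to Day7, Nanog, Esrrb, Klf2, Zfp42, Tfcp2l1 and Dppa3 were lowered, 6 of 10 against 18.1% of all genes, and none was raised, against 18.1%. After the 75th percentile shift 6 were lowered and none raised as well. Without normalization the array as a whole was higher on Day7 than on Day4, with a median over all genes of 1.06, 3.33% lowered and 52.1% raised. On that scale 0 factors were lowered, and 2 were raised, Klf4 (1.30) and Tbx3 (1.35). The median of the 10 lay 0.89 below that of all genes (a difference of -0.89).

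What remained on Day7 was a signal above background for every factor. It was 5.55% of ES for Pou5f1, 6.24% for Dppa3, 8.05% for Esrrb, 8.08% for Klf4 and 8.44% for Tfcp2l1, and between 14.2% and 15.4% for Zfp42, Klf2 and Klf5. Nanog and Tbx3 stood apart at 75.6% and 81.2%, changes of -0.40 and -0.30. The other probe of Tfcp2l1 stood at 5.05% of ES, and its Day7 reading lay 2.07 above the 95th percentile of the ERCC probes on that array on the log2 scale. With the shift to the 75th percentile, the same 5 factors were under 10% of ES, from 4.49% for Pou5f1 to 7.05% for Tfcp2l1.

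The time courses of the factors were also set against each other. After each gene was centred on its own mean, the closest pair of the 10 was Esrrb and Klf5, with a root mean square difference of 0.42 over the 5 arrays, and the most distant pair was the 2 core factors, Pou5f1 and Nanog, at 2.26. Klf2 lay near Dppa3 (0.43) and Zfp42 (0.46), and Nanog was nearest to Tbx3 (0.81). The distances of Nanog include its Day2 reading below the ERCC level, and were not computed with the floor at that level. Among 8908 other genes that were well above background in ES and changed at least 2-fold, the nearest to Pou5f1 were Cth and Zfp979, to Esrrb Cpne8 and Lrrc34, and to Klf2 Naa25 and Tsks. Nearest to Zfp42 were Slc1a5 and Hhex, to Tfcp2l1 Grhl3 and Khk, and to Dppa3 Tmem79 and Mnd1. The root mean square differences of these neighbours ran from 0.06 for Naa25 to 0.26 for Lrrc34. For Nanog, Klf4 and Klf5 the nearest genes read below the ERCC level on Day2 and are not named. As an example, Slc1a5, at 0.06 from Zfp42, changed by 0.28, -0.32, -0.84 and -2.78 from ES to Day2, Day3, Day4 and Day7, where Zfp42 changed by 0.14, -0.41, -1.02 and -2.82.

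The wider network also fell, with a smaller median change than the factors on Day2. Of 35 other pluripotency genes, 34 had a probe, and 12, 24, 26 and 29 of them were lowered at least 2-fold on Day2, Day3, Day4 and Day7. On Day2, 2 were raised, and none on the later arrays. The shares of all genes lowered were 11.3%, 10.2%, 14.4% and 24.4% in the same order, and 10.7% were raised on Day2. The list's median was -0.73 on Day2 and -3.01 on Day7. After the shift, 20 were lowered on Day2, with a median of -1.14. The largest falls by Day7 were those of Fgf4, the ES cell growth factor that drives Erk signalling (30.5-fold), Nr0b1, an orphan nuclear receptor (24.6-fold), Utf1, a chromatin factor (22.4-fold), and L1td1, an RNA-binding protein (20.4-fold). For Fgf4 and Nr0b1 the loss was largely complete on Day3, at 21.4-fold and 14.5-fold, while on Day2 it had been 2.51-fold and 1.87-fold (3.48-fold and 2.42-fold after the shift). The 5 genes that were not lowered on Day7 were Sox2, Gbx2, Sall1, Jam2 and Tet2. Sox2, the partner of Pou5f1, read 12.70 in ES, 12.01 on Day2 and Day3, 11.44 on Day4 and 11.93 on Day7, and so kept to within 2.40-fold of its ES level. After the 75th percentile shift its change on Day7 was -1.18, which counts as lowered.

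Genes of the signals that hold the naive state were less uniform. Of 14 LIF, Wnt and BMP pathway genes, 4, 4, 3 and 5 were lowered on Day2, Day3, Day4 and Day7, and 4 were raised on Day7. Among all genes 11.3%, 10.2%, 14.4% and 24.4% were lowered on Day2, Day3, Day4 and Day7, and 10.7%, 15.6%, 17.0% and 24.8% were raised. These shares are to be held beside the counts above and those of the lists that follow. The list's median on Day7 was 0.08, and -0.42 after the 75th percentile shift. Lifr, the LIF receptor, Stat3, its effector, and Socs3, the feedback inhibitor that Stat3 induces, were low together on Day2, by 5.88-fold, 5.20-fold and 8.56-fold. Lifr was back within 2-fold of its ES level on Day7, with a change of 0.28 and of -0.12 after the shift, and so was Stat3 (-0.12), whereas Socs3 was still 3.94-fold below ES. The largest loss on Day7 was that of Lef1, a Wnt-responsive DNA-binding factor (17.8-fold), followed by Tcf7, its relative (5.79-fold), and Tcf7l1, the repressor of Esrrb and other naive genes (4.02-fold). Gsk3b, the kinase that restrains Wnt signalling, was raised 4.15-fold (a change of 2.05, and of 1.46 after the shift), Jak2 3.63-fold, Smad1 2.87-fold and Jak1 2.43-fold, the last falling short of 2-fold after the shift.

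Genes of the formative and primed epiblast, the state that follows the naive one, were mostly lost as well. Of 20 listed, 8, 13, 13 and 14 were lowered on the 4 later arrays, with a median of -0.87 on Day2 and -2.91 on Day7, and 2, 2, 3 and 3 were raised. The shares of all genes on these arrays were 11.3%, 10.2%, 14.4% and 24.4% lowered and 10.7%, 15.6%, 17.0% and 24.8% raised. Otx2, a factor that guides exit from the naive state, was lost 13.9-fold on Day2, 87.7-fold on Day3 and 143-fold on Day4, and stood 33.5-fold below ES on Day7. Dnmt3b, a DNA methyltransferase of the epiblast, fell 31.8-fold and Grhl2, an epithelial factor, 24.7-fold by Day7, and Zic2, not well above background there, at least 65.6-fold. Sox4, a factor of immature neurons, rose 10.4-fold, the methyltransferase Dnmt3a 3.80-fold and Sall2 2.78-fold. In the ES sample all 20 genes were well above background.

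The other members of the Krüppel-like family, 14 genes, showed no common course. On Day2, Day3 and Day4, 5 were lowered and none raised, Klf11 and Klf15 being counted on Day2 with readings below the ERCC level, and on Day7, 6 were lowered and 3 raised, with a median of -0.96. Klf1 and Klf14 were not well above background on Day7. With the floor at the ERCC probes they had no value there, and the median was -0.55. Klf9 fell 14.9-fold, Klf16 4.88-fold and Klf15 4.30-fold by Day7. Klf12 rose 6.52-fold, Klf7, which has roles in neurons, 2.59-fold, and Klf11 2.28-fold, Klf7 falling short of 2-fold after the 75th percentile shift (0.73). Among those that read above the ERCC level on Day2, the largest loss on that array was that of Klf9, at 2.76-fold and after the shift 3.57-fold, less than the loss of Klf4 or Klf5.

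A list of relatives and namesakes of the factors outside that family split into genes lost and genes gained. Of 19 genes, 9 were lowered and 7 raised on Day7, and the median was -0.78. Dppa2, Dppa4 and Dppa5a, all among the 9 lowered, are tied to Dppa3 by name only. The 4 with the largest rise, Esrrg, Tbx2, Pou3f2 and Pou3f3, were not well above background in ES and were raised at least 120-fold, 103-fold, 62.5-fold and 33.1-fold. With the floor at the ERCC probes these bounds were 22.6-fold, 31.7-fold, 11.8-fold and 6.28-fold. Some of the 4 were raised before Day7 as well. They are a relative of Esrrb, a relative of Tbx3, and POU factors of the nervous system. Those lost most were Grhl2, Dppa4 (13.1-fold), Grhl3 (12.0-fold), which resembled Tfcp2l1 in its course, and Grhl1 (11.0-fold). Esrra stayed within 2-fold of ES on every array. Of the 19, Pou3f1 and Grhl2 are also counted among the epiblast genes and Dppa2, Dppa4 and Dppa5a among the other pluripotency genes, and Lef1 is in both the signalling and the epiblast list.

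**Figure D2:**
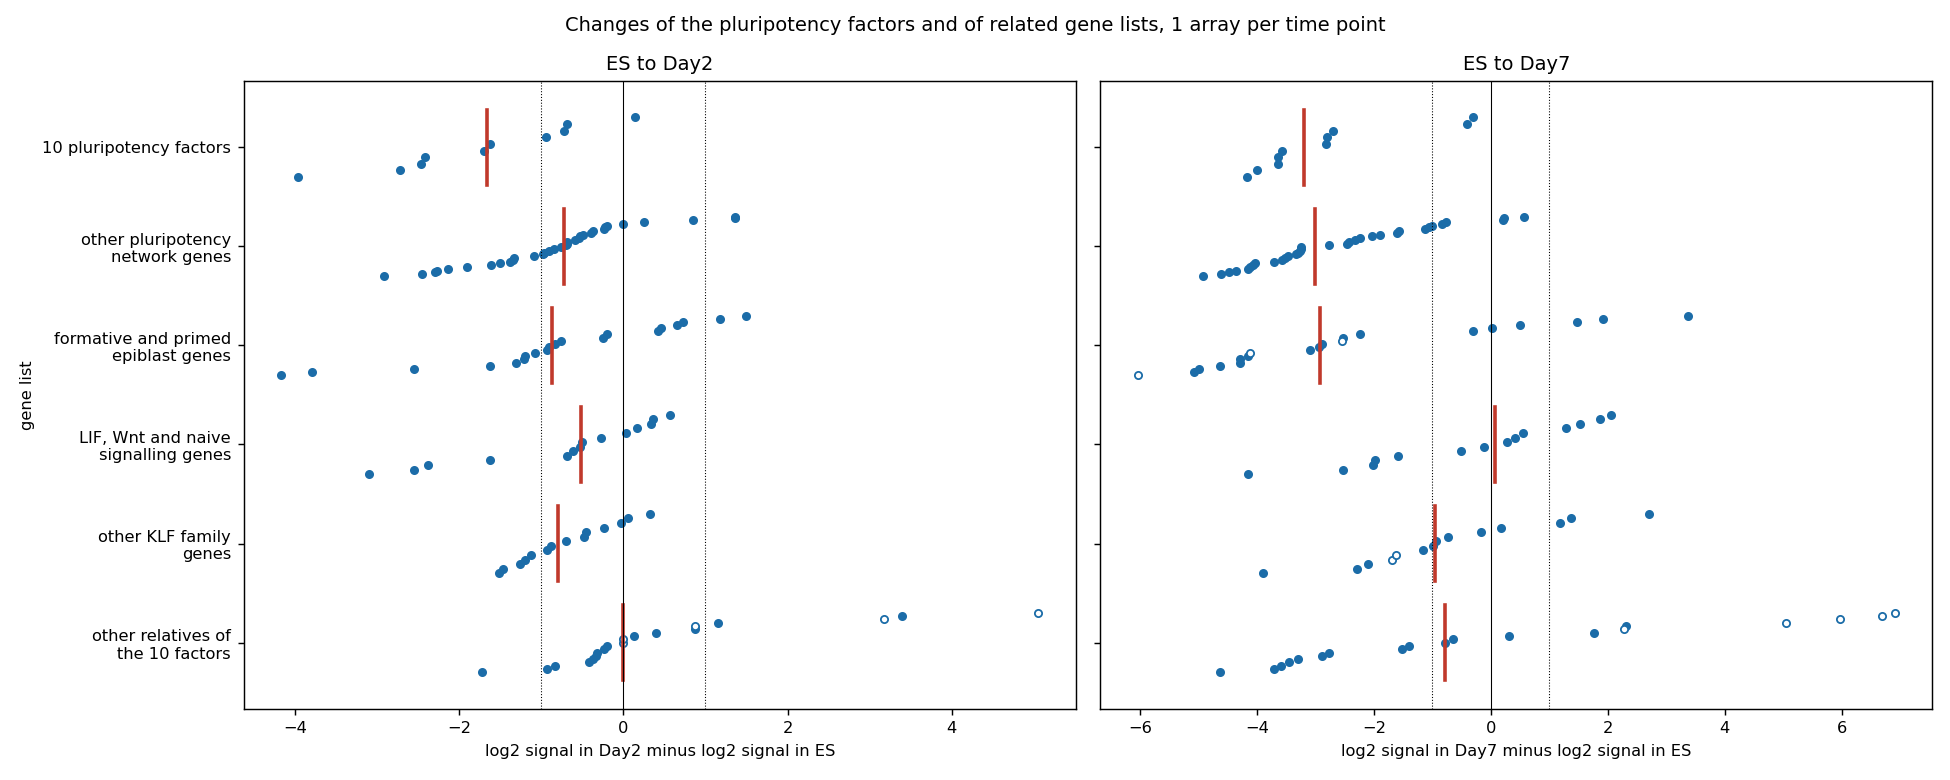
Log2 signal on Day2 (left) and Day7 (right) minus that in ES (horizontal axes) for the genes of 6 lists (vertical axis), each point being 1 gene on 1 array per time point. Open points rest on a reading not well above background and are bounds or have no fold, red lines are medians, and dotted lines mark 2-fold. The list of other relatives also holds Dppa2, Dppa4 and Dppa5a, tied to Dppa3 by name only. On Day7 the medians of the 10 factors (-3.19), the other pluripotency genes (-3.01) and the epiblast genes (-2.91) lie far to the left, and that of the signalling genes near 0 (0.08).

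Markers of other cells that express some of these factors were read as whole lists. Of 8 primordial germ cell markers, a lineage in which Dppa3, Nanog and Pou5f1 are active, each passed the background limit on every array, and 5 were lowered and 1 raised on Day7. Sums add signals of different probes and were compared between arrays only. The summed signal of this list was 16723 in ES and 15206, 15086, 11718 and 8126 on Day2, Day3, Day4 and Day7, with Tfap2c the largest term up to Day4 and Nanos3 on Day7. Markers of two-cell-like cells, a rare state within ES cultures, were mostly dim in the ES sample. Of 7 measured, 2 were well above background in ES and 6 on Day4 and Day7, and 6 were raised on Day7, or 3 after the shift. Zscan4c, Zscan4f, Tcstv1 and Tcstv3 were not above background in ES, so their changes from ES are bounds. With the floor at the ERCC probes, Tcstv1 and Tcstv3 had no fold on Day7. Their sum was 6359 in ES and 2911, 4817, 16450 and 18290 on Day2, Day3, Day4 and Day7, led by Zfp352 except on Day4, where Zscan4f led, and Tdpoz4 was not above background on any array. From Day4 to Day7, 5 of these markers were lowered and 1, Zfp352, was raised, with a median of -2.02, where 18.1% of all genes were lowered. In the same step 6 of 8 germ cell markers (median -1.23), 5 of 8 trophoblast markers (-1.43) and 4 of 7 primitive endoderm markers (-1.22) were lowered. The part of these cells in the signals of the factors was not tested.

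Markers of the remaining lineages were recorded in the same way. On Day7, 5 of 8 neural progenitor markers were raised and 2 lowered, and their sum, led by Nes up to Day4 and by Fabp7 on Day7, was 9970 in ES and 5936, 11869, 25639 and 225652 on Day2, Day3, Day4 and Day7. Of 8 primitive endoderm markers, 4 were raised on Day3 and on Day4, and on Day7 2 were raised and 3 lowered, with sums of 915 in ES and 1401, 3055, 5854 and 18622 on Day2, Day3, Day4 and Day7. That list was led by Foxa2, a gene of the floor plate as well, on all arrays but ES, where Gata4 led, and Afp was not above background on any array. Of 8 trophoblast markers, 3 were raised and 3 lowered on Day4 and 4 lowered on Day7, and their sum, led by Krt18 on every array, was 36780, 26552, 49504, 90478 and 17284 from ES to Day7. Of 8 fibroblast markers, 5 were raised on Day7 and 1, Thy1, was lowered 11.6-fold, and their sum was 3506, 2340, 3050, 5195 and 10532 from ES to Day7, led on Day7 by Dcn, with Lum and Postn not above background before Day7. With the floor at the ERCC probes, Lum and Postn changed by 0.13 and 0.20 on Day7, short of 2-fold. Of 8 mesoderm markers, 1 was raised and 1 lowered on Day7, with sums of 11627, 7107, 9450, 11418 and 13832 led by Kdr, with Mesp1 and Mixl1 above background on Day2 alone, T in ES and on Day2, and Meox1 on every array but ES. The Day2 readings of Mesp1, Mixl1, T and Meox1 lay below the ERCC level of that array. The part of these lineages in the return of Nanog and Tbx3 was not tested.

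Housekeeping genes were a further check of scale. Of 10, 2 were lowered on Day7, Hprt by 7.01-fold and Tbp by 2.76-fold, and Ywhaz was raised 3.47-fold, with a median of the 10 of -0.11 and of all genes of -0.07. After the shift, 4 were lowered (Hprt, Tbp, Sdha and Pgk1), with a median of -0.87. Actb changed by 0.18 and Gapdh by -0.13, and after the 75th percentile shift by -0.24 and -0.75. The losses of the factors under 10% of ES on Day7 were larger than any change in that list. Under quantile normalization those of Zfp42, Klf2 and Klf5 did not differ from that of Hprt by more than the scanner error. After the shift Hprt (-3.43) had lost more than Zfp42 (-2.98), Klf5 (-2.99) and Klf2 (-3.22).

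Promoter sequence of the factors was read for binding motifs of the network. Windows from 250 bases before to 50 after the start, from RefSeq on GRCm38.p6, were found for 7 of the 10 factors, 10 windows in all, since Pou5f1, Nanog and Esrrb have 2 starts each. Windows for Klf5, Tbx3 and Dppa3 are not analysed here. Motifs were searched on both strands, and a match is a description of letters and not of binding. The octamer ATGCAAAT was held by 1.74% of all 32851 promoters, the Esrrb motif TCAAGGTCA by 0.423%, the Krüppel-like motifs GGGTGTGG and GGGCGTGG by 3.56% and 5.33%, the T-box motif AGGTGTGA by 1.28% and the Sox motif CATTGTT by 3.78%. A pair of CCAG in one direction with 6 bases between, the Tfcp2l1 motif, was held by 3.44%.

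Of the 7 factors, Zfp42 held the octamer and GGGTGTGG, Nanog and Tfcp2l1 held GGGCGTGG, and Pou5f1 held the Sox motif. The other 3 motifs were in no window of these 7 factors. The GGGCGTGG of Nanog is the same stretch read in both of its windows, which overlap, and no other matches overlapped. The stretches are shown with the motif in capitals, 5′ to 3′ along the gene, so that a motif on the opposite strand appears as its reverse complement. The first 2 are from the promoter of Zfp42, the last factor to fall under 50% of ES. The octamer lies 186 and the Krüppel-like motif 75 bases before the start, at chr8:43307168-43307215 and chr8:43307057-43307104 on the minus strand.
Zfp42, octamer: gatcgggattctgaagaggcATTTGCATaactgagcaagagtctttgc
Zfp42, Krüppel-like: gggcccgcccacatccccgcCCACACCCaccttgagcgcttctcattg
Tfcp2l1 held the Krüppel-like motif in 2 places, 61 and 47 bases before the start, which lie 14 bases apart in stretches that share sequence, and the upstream stretch is at chr1:118627864-118627911 on the plus strand.
Tfcp2l1, Krüppel-like: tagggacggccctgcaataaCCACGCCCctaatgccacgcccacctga
In Nanog the motif began 10 bases before the upstream start, at chr6:122707459-122707488 on the plus strand, and in Pou5f1 the Sox motif began 159 bases before the downstream start, at chr17:35508628-35508674 on the plus strand.
Nanog, Krüppel-like: gtgaattcacagggctggtgGGGCGTGGgt
Pou5f1, Sox: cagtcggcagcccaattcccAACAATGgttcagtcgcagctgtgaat
Zfp42 and Tfcp2l1, which hold Krüppel-like motifs, were lowered on Day7, and Nanog, which holds one, was not. Esrrb, Klf2 and Klf4, whose windows hold none of the motifs, and Pou5f1, which holds only the Sox motif, were all lowered on Day7.

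No replicate check was possible, and the number of arrays limits the precision of every value above. Scanner error describes a spot and not a culture. The count of lowered factors on Day2 depended on scaling, and that array also stood apart in background. A link between them was not tested. Day7 differs from ES in slide as well as in time. Of the 10 factors, 9 have 1 probe, Nanog and Tbx3 among them. Protein was not measured, and the stretch from Day4 to Day7 holds no array.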

How the data were processed

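Per the file headers, the authors scanned 1 one-colour Agilent array per sample and made its intensity values with Agilent Feature Extraction 10.5.1, which subtracts background and detrends. On each array, the deposited log2 table lay within 0.01 of log2 of that signal minus the array's 75th percentile for at least 99.99% of probes. Processed signals were quantile normalized in limma 3.58.1 (R 4.3.3), the method named in a figure legend of the study; all else used Python 3.11.15, numpy 2.4.6, pandas 2.3.3 and matplotlib 3.10.9. Of 55681 mouse probes, 26300 were matched by accession to 19897 symbols, and the probe with the highest mean stood for a gene. A dim probe, one without the flag for well above background, was raised to the array's floor, the smallest reading that carried the flag, where it lay below. A gene needed 1 of the 2 arrays well above background. Members and lists were chosen with earlier results of these data known. Genes named are all members, up to 4 largest rises and falls of each list, relatives or partners of a member, and the 2 nearest in course, not all of which are reported here. Alternatives were the 75th percentile shift, no normalization, normexp, the deposited table, no filter, a floor at ERCC probes, the mean over probes and thresholds of 1.5-fold and 4-fold. Quantile normalization without Day2, the related lists under all settings and list genes under the shift and the ERCC floor were added after the data were seen. Normexp (offset 50) was run on median spot signals. Slide could not be modelled. The code was tested on simulated data. GRCm38.p6 was joined by gene name only, because the array design is annotated on mm9.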

Additional observations from a re-analysis of the deposited data

Results flagged for a closer look

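ERCC probes drew attention on the Day2 array. They match sequences that are not from mouse and were not compared between time points, and served only as a level for dim readings. Yet 66.7% of them were well above background on Day2, against 4.17% to 9.38% on the other 4 arrays. The difference was not tested.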

How the results depend on the processing

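On Day7, 8 factors were lowered under every setting. Without normalization the factors' median was -2.45 from ES to Day3 and -3.10 from ES to Day4, and the step from Day4 to Day7 turned its sign, with a median of 0.16 and changes of 0.13 for Nanog, 0.11 for Esrrb and 0.20 for Klf2. Smaller falls in that step turned too, to 1.30 for Klf4, 0.61 for Pou5f1 and 0.52 for Klf5, and Tbx3 changed by 1.35, so that 2 factors were raised and 0 lowered. These values carry a shift of the whole array: without normalization the median over all genes was -0.63 from ES to Day3, -1.06 from ES to Day4 and 1.06 from Day4 to Day7, and the factors' medians lay 1.83, 2.03 and 0.89 below it (differences of -1.83, -2.03 and -0.89). With a 4-fold threshold, 4 factors were lowered on Day3 and 4 on Day4, against 2.32% and 4.10% of all genes, and 1 from Day4 to Day7, against 4.36%. On Day7, that threshold kept 3 lowered and 1 raised signalling genes, 1 raised epiblast gene, and 3 lowered and 1 raised genes of the Krüppel-like family. Among all genes it gave 8.37% lowered and 12.9% raised from ES to Day7. Of the other values, 493 of single factors, 82 of marker lists and 104 of steps and raised factors stayed within 1.5 times, while 44, 2 and 15 moved further. Outside the setting without normalization, single factors moved in Nanog, to and from Day2, and in Tfcp2l1 on Day3 (-1.95 as the mean of its probes). No paired analysis was possible because single arrays carry no pairing. Signal over background limits the Day2 reading of Nanog.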
